A study of Mus musculus with 12 samples.

Results

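Adding a Rab11b null genotype to an epithelial deletion of Rab11a was examined by comparing 3 DKO libraries with 3 AKO libraries, 6 of the 12 RNA-seq libraries of a mouse intestinal study. All genes with a deposited value of at least 1 in at least 3 of these 6 libraries were taken, which left 13366 of 23988 genes. The other 10622 genes fell below that filter, and 6249 of them were at 0 in all 6 libraries. AKO mice were Rab11aL/L, VillinCreER+, so that both floxed copies of Rab11a could be removed by a tamoxifen-inducible Cre driven by the villin promoter, which is active in intestinal epithelial cells. DKO mice were Rab11aL/L, Rab11b-/-, VillinCreER+, and therefore differed from AKO in the stated genotype by Rab11b-/-, which does not depend on Cre. WT and BKO (Rab11b-/-) mice were used to examine the same Rab11b genotype without the Rab11a deletion, for the level of Rab11a in WT and in alternative fits. All mice were adults, received tamoxifen at 40 mg/kg and were killed 2 days later. No label states the floxed or Cre alleles of the WT and BKO mice, or that the 3 numbered libraries of a group are different animals, and the p-values therefore reflect only the spread among these libraries, which may be technical.

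Rab11 proteins are small GTPases that switch between a GTP-bound and a GDP-bound state and mark recycling endosomes, from which receptors, transporters and enzymes return to the cell surface. In the absorptive enterocyte they work with the motor myosin Vb and with adaptor proteins to carry cargo to the apical brush border. Rab11a and Rab11b are close relatives expressed in most tissues, Rab25 is an epithelial relative, and the title of the study names a shared role of Rab11a and Rab11b in the mitotic spindle of dividing progenitors.

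Values are deposited fragment counts (fpm) from whole-tissue RNA, scaled by a factor of each library but not to equal library totals. They are not divided by gene length, so they are compared between libraries and never between genes. The 6 libraries held 20.1 to 29.8 M counted reads. Differences are given as DKO minus AKO of log2(value + 1), a scale that understates the change of genes at low values, with ± the standard error of the fit (3 libraries a group). A gene was called where limma's two-sided moderated test gave an adjusted p (Benjamini-Hochberg, over all 13366 genes) under 0.05, and "rose" and "fell" below stand for called genes. Profiles correlated at 0.974 to 0.990 within AKO, at 0.970 to 0.983 within DKO and at 0.889 to 0.909 between the groups, across genes.

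Epithelial markers were high in all 6 libraries, with Vil1 at 1162 to 2880.4 and Epcam at 1847 to 3220.0. The segment named in the labels, jejunum, was not borne out by its markers: lactase (Lct) was at 0 to 0.263 and Gata4, a regulator of the proximal intestine, at 0.407 to 1.02. Fabp6 and Slc10a2, the bile acid binding protein and the bile acid transporter of the ileum, were at 728 to 13330 and 403 to 814. Xist, the RNA of the inactive X chromosome, was at 144 to 342 in the DKO libraries, at 223 in AKO replicate 2 and at no more than 0.156 in the other AKO libraries. Transcripts of the Y-linked genes Ddx3y, Eif2s3y, Kdm5d and Uty showed the opposite pattern, so that all DKO libraries shared the state of 1 of the 3 AKO libraries. Sex, as marked by these transcripts, was thus partly confounded with genotype. In these 6 libraries a fit with Xist state as a term therefore sets the 3 DKO libraries against AKO replicate 2 alone. This holds for every DKO against AKO result with that term below, unless a fit of more libraries is named. With Xist state as a term in the fit, 3951 genes were called (29.6%), all 5224 genes called without it kept their direction, and 3495 of them were still called. AKO replicate 2 also contributed to the 5224 calls, so the kept direction is not an independent check. The fit of 6 libraries cannot tell Xist state apart from other differences between AKO replicate 2 and the other AKO libraries. In a fit of 11 libraries with Xist state as a term, without BKO replicate 3, 5291 genes were called (39.6%).

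Rab11b, the gene whose loss separates the groups, was at 116, 116 and 104 in the AKO libraries and 24.6, 21.7 and 22.3 in the DKO libraries. Its DKO values lay far below every AKO value, and the difference was -2.24 ± 0.11 (adjusted p = 1.12e-05). Rab11a, targeted by villin Cre in both groups, was at 48.9, 67.2 and 62.0 in the AKO libraries and 109.7, 96.0 and 112 in the DKO libraries, and the WT libraries held 182, 188 and 188. Every DKO value exceeded every AKO value and stayed below every WT value, and the rise of Rab11a from AKO to DKO was 0.83 ± 0.15 (adjusted p = 0.00312). In whole tissue, RNA of cells in which villin Cre is not active is counted too, and here as in all results below a change in the number of cells of a type cannot be told apart from a change of RNA per cell. Rab25 was at 86.8, 79.8 and 83.9 in the AKO libraries and 92.7, 95.9 and 106 in the DKO libraries, with the DKO libraries above the AKO ones, and its difference of 0.23 ± 0.11 did not pass the test (adjusted p = 0.133).

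**Figure D1:**
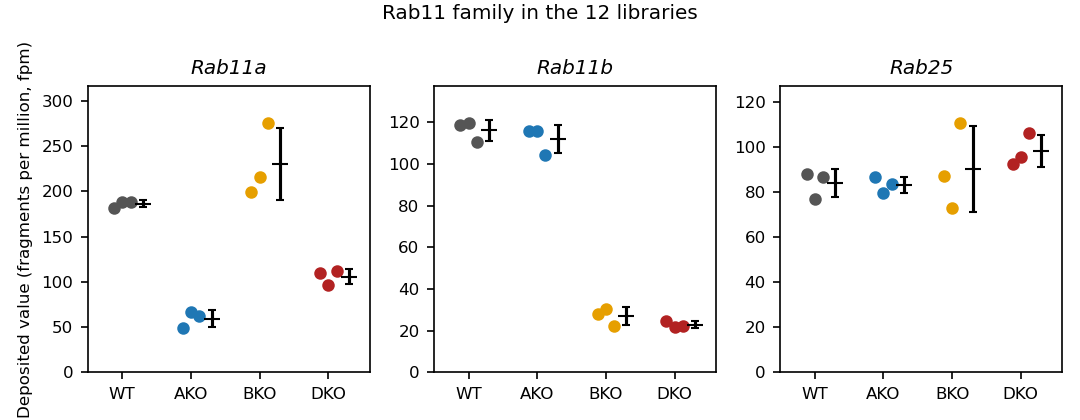
Deposited values (fpm) of Rab11a, Rab11b and Rab25 in the 12 libraries. Points are libraries, bars to their right are the mean and SD of 3. Rab11b is at 21.7 to 24.6 in DKO against 104 to 116 in AKO, and Rab11a is higher in DKO than in AKO.

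Among Rab11 partners, the adaptor Rab11fip3, which links Rab11 to motors and to the cleavage furrow, fell from 86.7, 101 and 67.5 in AKO to 32.2, 26.9 and 25.2 in DKO (-1.55 ± 0.17). Its relative Rab11fip4 fell by 0.98 and the exocyst subunit Exoc6 by 0.67 on the log2 scale. Rab8a, a GTPase that acts after Rab11 on the way to the apical membrane, was at 176, 205 and 174 in the AKO libraries and 143, 129 and 141 in the DKO libraries and fell by 0.42. The motor Myo5b was at 345, 429.9 and 359 in the AKO libraries and 411, 308 and 271 in the DKO libraries, overlapped between the groups and did not pass the test (adjusted p = 0.38). Without AKO replicate 1 or DKO replicate 2, 3 partners fell. In all, 2 of 18 partners rose and 5 fell, beside 39.1% of all 13366 genes called in either direction. Rab11fip4 was called in 19 and Rab8a in 17 of 22 alternative analyses. Of the apical delivery machinery, the syntaxin Stx3 rose from 119.8, 146 and 138 to 247, 211 and 223 (0.75 ± 0.13), while Vps33b and Vipas39, which act together on the way from recycling endosomes to the apical membrane, fell by 1.16 and 0.79. Here 3 members rose and 3 fell of 16, close to the share of all genes.

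Over all genes, 5224 were called (39.1%), of which 2570 rose (19.2%) and 2654 fell (19.9%). Counts of list members that rose or fell are to be read beside these shares. At least 2-fold changes on this scale were found for 981 genes that rose (7.34%) and 1042 that fell (7.8%), and at least 8-fold changes for 71 and 96. The 3 DKO and 3 AKO values did not overlap for 7150 genes (53.5%). Of the 5224 called genes 5185 did not overlap, so a lack of overlap adds little to a call. The median difference over all genes was 0.01, but the deposited scaling itself holds the median gene at nearly the same level in all libraries, and with scaling by library totals it was 0.055, with 53.3% of the calls higher against 49.2%. Of the genes tested, 205 reached the filter value of 1 in the 3 DKO libraries alone and 126 in the 3 AKO libraries alone, and such genes had to differ, so that their calls (185 and 108) are given as descriptions only. Among the named genes these are Fosl1, Gml, H19, Hemt1, Lrp2 and Retnlb, which entered through DKO, and Arg2, Cyp2c55, Cyp3a11, Cyp3a25 and Gm8801, which entered through AKO. Abca4 and Krt14, named at the end, were likewise below 1 in every AKO library. In the lists below, 4 nutrient transporters, 4 xenobiotic genes and 2 hydrolases entered through AKO alone, as did 1 member each of the ion transport, polyamine, class II, T and NK cell and macrophage lists. Through DKO alone entered 3 epithelial defence genes, 2 of the interleukin-1 family and 1 member each of the immediate early, xenobiotic and enterocyte regulator lists. Of the 179 called genes named in the text 149 were called in every one of 22 alternative analyses that gave them a value. Anln, Apoa4, Arntl, Ascl2, Cd3e, Cd8a, Cdk1, Cdkn1a, Defa22, Ephb2, Gzma, Hbegf, Lss, Numa1, Olfm4, Per1 and Slc16a1 lost the call in 1 or 2, and those that lost it in more are marked where they are described.

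**Figure D2:**
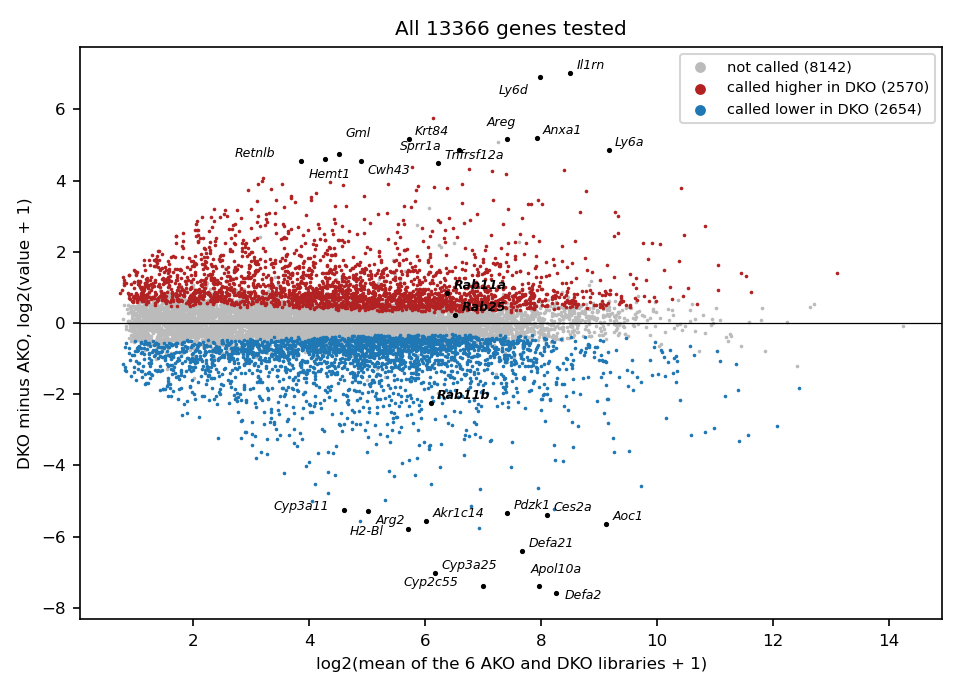
Difference between DKO and AKO on the log2(value + 1) scale against the mean level of the 6 libraries, for all 13366 genes. Red and blue points were called higher (2570) and lower (2654) in DKO, grey points were not called, and black points are Rab11a, Rab11b, Rab25 and the 12 largest called changes in each direction.

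The largest rise was that of Il1rn, which encodes the secreted antagonist of the interleukin-1 receptor, at 4.23, 3.46 and 6.27 in the AKO libraries and 808, 661 and 694 in the DKO libraries. Every DKO value lay far above the highest AKO value, a difference of 7.02 ± 0.19 (adjusted p = 2.31e-06). Ly6d, a surface protein of the Ly6 family, was at 5.88, 1.28 and 3.33 in the AKO libraries and 393, 422 and 697 in the DKO libraries (6.90 ± 0.39). Anxa1, a membrane-binding annexin, was at 13.1, 9.10 and 13.9 in the AKO libraries and 478, 381 and 560.4 in the DKO libraries (5.19 ± 0.19). None of these genes overlapped between the groups, which was a condition for choosing the 12 largest changes. Areg, the epidermal growth factor receptor ligand amphiregulin, was at 5.95, 10.4 and 8.55 in the AKO libraries and 287, 294 and 417 in the DKO libraries (5.17 ± 0.22), and the squamous envelope gene Sprr1a was at 6.20, 1.40 and 13.2 in the AKO libraries and 207, 176 and 164 in the DKO libraries (4.87 ± 0.54). Ly6a, the surface protein Sca-1, was at 36.7, 22.5 and 62.6 in the AKO libraries and 1129, 1038 and 1167 in the DKO libraries (4.86 ± 0.31). Krt84, Gml, Hemt1, Retnlb, Cwh43 and Tnfrsf12a, the receptor of the cytokine TWEAK, completed the 12 largest increases, with differences of 5.16 ± 0.17, 4.75 ± 0.23, 4.61 ± 0.28, 4.55 ± 0.25, 4.54 ± 0.23 and 4.49 ± 0.17. Gml, Hemt1 and Retnlb were below 1 in every AKO library and passed the filter through DKO alone.

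Among the largest falls, Cyp2c55, a cytochrome P450 of drug and lipid metabolism, was at 404, 274 and 81.6 in the AKO libraries and 0.436, 0.151 and 0.183 in the DKO libraries (-7.39 ± 0.505, adjusted p = 3.57e-05), with all DKO values below 1, so that it passed the filter through AKO alone, and a wide spread within AKO. Aoc1, the diamine oxidase that breaks down histamine and putrescine, was at 1049.8, 1342 and 888 in the AKO libraries and 15.9, 25.3 and 21.5 in the DKO libraries (-5.65 ± 0.21). Pdzk1, a scaffold that holds transporters in the microvillus, was at 235, 608 and 156 in the AKO libraries and 4.51, 7.42 and 6.31 in the DKO libraries (-5.34 ± 0.44). In each of these genes every DKO value was far below the lowest AKO value, and a lack of overlap was a condition of their choice. Cyp3a25 was at 172, 189 and 67.2 in AKO and at 0 in all 3 DKO libraries, at least 1081-fold lower when the DKO mean is set to the floor of 3 reads per library, a value of 0.132 (adjusted p = 1.12e-05). Cyp3a11 was at 45.5, 80.9 and 13.1 in AKO and likewise at 0 in DKO, at least 352-fold lower (adjusted p = 0.000246). This bound rests in part on AKO replicate 2: without it Cyp3a11 was at least 222-fold lower, and Cyp3a25 at least 904.5-fold. Both genes passed the filter through AKO alone and so had to differ. Apol10a, Akr1c14, the carboxylesterase Ces2a, the mitochondrial arginase Arg2 and the class I-like gene H2-Bl fell by 7.37, 5.56, 5.39, 5.29 and 5.79 on the log2 scale. The alpha-defensins Defa2 and Defa21 fell by 7.59 and 6.42, but defensin copies are nearly identical and reads may be split among them, and Defa2 (0, 0 and 30.1 in DKO) was called in 21 of 22 alternative analyses.

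**Figure D3:**
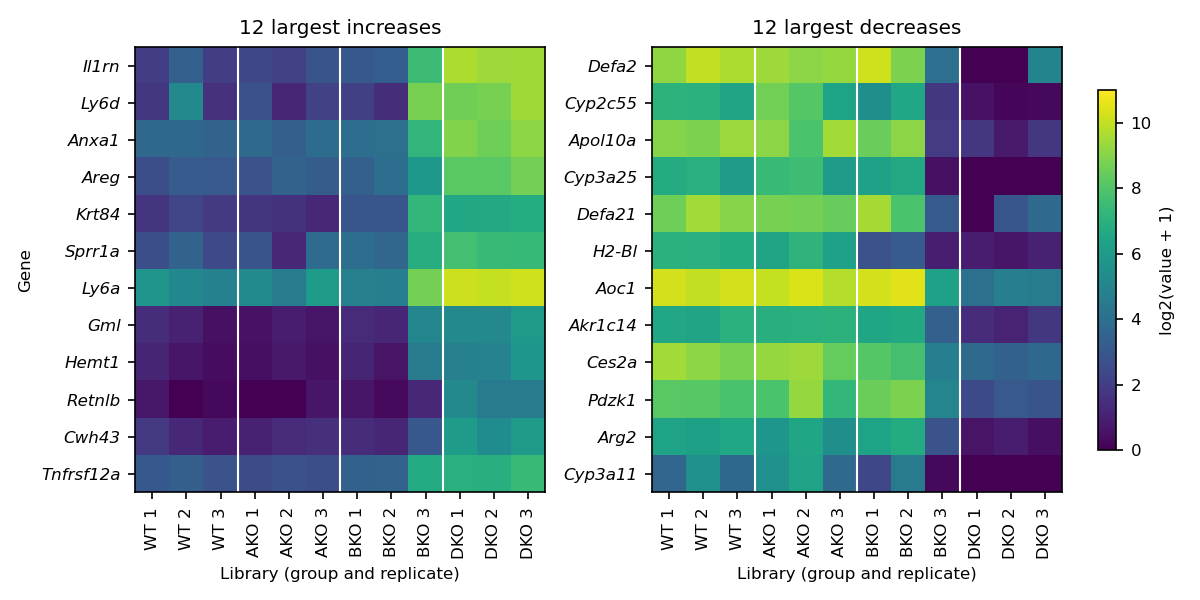
Values of the 12 largest called increases and decreases in all 12 libraries, as log2(value + 1) in color. Each row is a gene and each column a library. The 3 DKO columns differ from the 3 AKO columns in every row because the genes were chosen for a lack of overlap. BKO replicate 3 is shifted from the other BKO libraries towards DKO in every row.

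Promoter windows, 250 bases before to 50 after the annotated start in RefSeq on GRCm38.p6, were available for 10027 of the 13366 genes tested and were searched on both strands for 4 motifs. TGANTCA, the AP-1 motif bound by Fos and Jun proteins, lay in 15.03% of the 153 windows of genes that rose at least 4-fold, in 7.11% of the 211 windows of genes that fell at least 4-fold, in 5.24% of all genes tested and in 7.93% of all 27025 windows. CAAAGTCC, a motif bound by the enterocyte regulator HNF4, lay in 2.61% of the first set, 7.11% of the second, 1.54% of all genes tested and 1.44% of all windows. For TTTATNG, a motif of CDX2, the shares in the same order were 18.95%, 16.1%, 7.12% and 11.3%, high in both sets of changed genes. Read on the other strand these letters include CTATAAA, which holds the TATA box, and the matches of Anxa1, Areg, Defa2 and Defa21 are of this form. The shares therefore do not tell CDX2 sites apart from TATA boxes. GGAATG, the TEAD motif, lay in 10.5%, 14.2%, 11.98% and 14.6%. The 4 windows below, written 5′ to 3′ on the strand of the gene, are those of genes among the 12 largest changes in each direction that hold AP-1 motifs (Il1rn and Sprr1a, which rose) or the HNF4 motif (Pdzk1 and Cyp3a11, which fell), with the motif in capitals. They lie at chr2:24336610-24336909 on the plus strand, chr3:92485832-92486131 on the minus strand, chr3:96829815-96830114 on the plus strand and chr5:145879805-145880104 on the minus strand, and a match describes the letters only. Defa2, which fell, also held an AP-1 motif, and where a gene has several annotated starts the window of 1 of them is shown.
Il1rn: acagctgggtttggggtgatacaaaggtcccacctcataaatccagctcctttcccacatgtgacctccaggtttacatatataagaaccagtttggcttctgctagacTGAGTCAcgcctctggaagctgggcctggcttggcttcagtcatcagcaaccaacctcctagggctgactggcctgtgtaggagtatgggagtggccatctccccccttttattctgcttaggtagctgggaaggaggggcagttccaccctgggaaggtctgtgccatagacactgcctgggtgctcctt
Sprr1a: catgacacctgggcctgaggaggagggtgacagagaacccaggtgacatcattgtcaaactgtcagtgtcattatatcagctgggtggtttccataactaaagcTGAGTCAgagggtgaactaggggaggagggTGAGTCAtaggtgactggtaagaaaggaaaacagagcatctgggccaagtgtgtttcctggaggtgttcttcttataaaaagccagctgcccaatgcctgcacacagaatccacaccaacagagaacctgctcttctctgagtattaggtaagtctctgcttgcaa
Pdzk1: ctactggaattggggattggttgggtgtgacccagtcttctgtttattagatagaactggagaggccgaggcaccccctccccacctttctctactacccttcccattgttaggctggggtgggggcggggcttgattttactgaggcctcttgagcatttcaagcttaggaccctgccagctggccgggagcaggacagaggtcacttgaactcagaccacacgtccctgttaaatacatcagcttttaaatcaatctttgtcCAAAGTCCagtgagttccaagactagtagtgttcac
Cyp3a11: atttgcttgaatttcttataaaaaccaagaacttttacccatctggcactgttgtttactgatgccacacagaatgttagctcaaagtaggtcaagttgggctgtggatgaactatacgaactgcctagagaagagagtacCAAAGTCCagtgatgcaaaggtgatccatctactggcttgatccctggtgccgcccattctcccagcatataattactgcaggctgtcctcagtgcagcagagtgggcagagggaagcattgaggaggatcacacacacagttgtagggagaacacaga

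Of 46 tested genes of the wound-associated, fetal-like epithelial state, a list that includes targets of the YAP co-activator, 43 rose and 1 fell, with a median difference of 2.48 against 0.01 over all genes. Beside Il1rn, Anxa1 and Ly6a, the receptor of urokinase Plaur went from 4.66, 3.27 and 4.17 to 95.5, 86.3 and 129.7 (4.37 ± 0.19), and tissue factor F3, the initiator of coagulation, from 11.3, 14.7 and 12.3 to 283, 196 and 335 (4.28 ± 0.20). Both separated the groups fully. The simple keratins Krt7 and Krt18 rose by 3.13 and 2.25, and the tight junction gene Cldn4 by 2.996 on the log2 scale. S100a6, a calcium-binding protein, was at 159, 202 and 182 in the AKO libraries and 2755, 2057 and 2799.9 in the DKO libraries (3.79 ± 0.17). Clu, which marks revival stem cells, was at 30.3, 11.8 and 16.97 in the AKO libraries and 44.7, 24.9 and 23.7 in the DKO libraries, with overlapping groups, and did not pass the test (adjusted p = 0.16). The glutathione transferase Gsto1 was the 1 member that fell (-0.65 ± 0.13).

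Ligands and feedback regulators of the epidermal growth factor receptor rose while 2 of its partner receptors fell. The ligands Areg, Btc, Ereg and Hbegf rose by 5.17, 3.07, 2.47 and 1.29 on the log2 scale. Egfr itself was at 21.97, 19.3 and 23.2 in the AKO libraries and 93.8, 62.5 and 53.4 in the DKO libraries (1.62 ± 0.21). The phosphatases Dusp4, Dusp5 and Dusp6 and the inhibitors Spry2, Spry4 and Errfi1, which are induced by and restrain this pathway, rose by between 1.07 (Dusp6) and 3.66 (Dusp4) on the log2 scale. In contrast Erbb2 fell from 201, 177 and 164 to 120.0, 93.1 and 74.8 (-0.93 ± 0.18), and Erbb3 by 1.07. Of 16 members 12 rose and 2 fell.

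Egr1, an immediate early transcription factor, went from 19.7, 12.2 and 19.1 in AKO to 155, 106 and 133 in DKO (2.89 ± 0.21), and Fosl1, a partner of Jun in AP-1, from 0.219, 0.195 and 0.219 to 5.72, 7.72 and 10.6 (2.86 ± 0.22). Junb, Atf3, Maff and Myc rose by 1.49, 1.40, 1.52 and 1.08, whereas Jun was at 88.2, 105 and 102 in the AKO libraries and 88.8, 73.4 and 73.1 in the DKO libraries and did not pass the test (adjusted p = 0.0808). Among immediate early genes 15 of 21 members rose and 0 fell. Of the heat shock genes 6 of 9 rose, among them Hspb1 (2.17 ± 0.25), and 3 with all 12 libraries in the fit.

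Within the interleukin-1 family, 8 of 15 members rose and 2 fell, and 5 rose without AKO replicate 1, without AKO replicate 3 or with Xist state as a term. The cytokine Il33 was at 5.60, 5.45 and 6.01 in the AKO libraries and 16.1, 17.3 and 18.3 in the DKO libraries (1.44 ± 0.14), and its receptor Il1rl1 at 1.47, 5.76 and 5.35 in the AKO libraries and 69.5, 49.1 and 48.3 in the DKO libraries (3.56 ± 0.37). Il1b was at 0.782, 1.21 and 1.10 in the AKO libraries and 1.84, 8.52 and 14.8 in the DKO libraries, low in all libraries and uneven within DKO (1.90 ± 0.54; called in 16 of 22 alternative analyses). The inflammasome genes Casp1 and Nlrp6 fell by 1.54 and 2.36. Among other epithelial defence genes and cytokines, the goblet cell product Retnlb, which passed the filter through DKO alone, was at 0, 0 and 0.570 in the AKO libraries and 35.0, 22.6 and 22.96 in the DKO libraries and the chemokine Cxcl16 at 11.8, 21.7 and 16.8 in the AKO libraries and 183, 164 and 193 in the DKO libraries (3.38 ± 0.20). Reg3a, an antimicrobial lectin, fell from 76.4, 129.5 and 62.1 to 2.13, 3.33 and 12.4 (-3.93 ± 0.51), while its relative Reg3g, at 4691, 3533 and 5149.7 in the AKO libraries and 1226, 2568 and 5203 in the DKO libraries, overlapped between the groups (adjusted p = 0.219). This list held 11 members that rose and 3 that fell of 22. Of the 22, 3 passed the filter through DKO alone and so had to be higher, as did 2 of the interleukin-1 family. Ptgs2, the inducible cyclooxygenase, rose from 2.28, 2.996 and 3.33 to 17.8, 18.0 and 22.3 (2.40 ± 0.17), and Hpgd, which inactivates prostaglandins, fell by 1.57.

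Of 20 digestive hydrolases of the brush border 17 fell and 1 rose, with a median difference of -2.25. Of the 20, 2 passed the filter through AKO alone and so had to be lower. Sucrase-isomaltase (Sis) was at 1404, 2855 and 1658 in the AKO libraries and 274, 379 and 251 in the DKO libraries, and the aminopeptidase Enpep at 2459.5, 3169 and 2678 in the AKO libraries and 335, 309 and 283 in the DKO libraries. All DKO values lay below all AKO values in both, with differences of -2.66 ± 0.28 and -3.16 ± 0.16. The protease Mep1a fell by 4.59, the aminopeptidase Xpnpep2 by 4.63, and the peptidase Ace by 2.24. The single member that rose was Alpl, the tissue-nonspecific alkaline phosphatase, from 1.10, 0.622 and 1.71 to 5.97, 6.78 and 4.39 (1.66 ± 0.24), whereas the intestinal form Alpi fell by 1.16.

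Villin, which bundles actin in the microvillus (Vil1), was at 2515, 2880.4 and 2535 in the AKO libraries and 1958, 1588 and 1162 in the DKO libraries (-0.78 ± 0.23, adjusted p = 0.0275; called in 13 of 22 alternative analyses). The actin bundler Espn and the protocadherins Cdhr2 and Cdhr5, which link the tips of microvilli, fell by 1.46, 1.35 and 1.09. Ezr, the membrane linker ezrin, was at 1462, 2109.5 and 1367 in the AKO libraries and 2330, 1926 and 1495 in the DKO libraries and overlapped between the groups (adjusted p = 0.496). Eps8l3 rose from 398, 615 and 396 to 1389, 1077 and 886 (1.26 ± 0.23). Of 20 members 11 fell and 1 rose.

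Of 20 nutrient transporters 16 fell and 1 rose, with a median of -1.69. Of the 20, 4 passed the filter through AKO alone and so had to be lower. The sodium-glucose transporter Slc5a1 was at 1156, 1573 and 1126 in the AKO libraries and 395, 413 and 394 in the DKO libraries (-1.66 ± 0.17), and the fructose transporter Slc2a5 at 36.7, 50.5 and 27.8 in the AKO libraries and 1.21, 3.26 and 2.06 in the DKO libraries (-3.64 ± 0.29). The glutamate transporter Slc1a1 was at 227, 248 and 232 in the AKO libraries and 5.38, 8.29 and 12.7 in the DKO libraries (-4.66 ± 0.25). None of the 3 overlapped between the groups. The peptide transporter Slc15a1 and the amino acid transporter Slc6a19 fell by 2.44 and 1.52, while the lactate transporter Slc16a1 rose by 0.54. For ions and water 12 of 22 members fell and 2 rose. The phosphate transporter Slc34a2 went from 508, 549 and 574 to 65.9, 45.5 and 41.1 (-3.42 ± 0.18), and the iron exporter Slc40a1 fell by 2.15.

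Of 27 fat absorption genes 10 fell and 7 rose, with a median of 0.19 that became -0.74 with Xist state as a term. Without AKO replicate 2, 11 of them rose. Apoa1, an apolipoprotein of secreted lipoprotein particles, was at 2569, 6404 and 2321 in the AKO libraries and 786, 1052 and 664 in the DKO libraries (-2.04 ± 0.39), and the fatty acid binding protein Fabp2 at 2704, 7405 and 2835 in the AKO libraries and 1319, 790.1 and 1067 in the DKO libraries (-1.89 ± 0.40). AKO replicate 2 was the highest library in both. Apoa4 moved the other way, at 47.8, 94.7 and 86.7 in the AKO libraries and 161, 322 and 215 in the DKO libraries (1.59 ± 0.31; not called with Xist state as a term, adjusted p = 0.0571), and so did the lipase Pnliprp2 (2.44 ± 0.24). Apoc2 was at 4.54, 98.8 and 4.78 in the AKO libraries and 57.2, 54.2 and 37.9 in the DKO libraries and did not pass the test (adjusted p = 0.189). AKO replicate 2 lay above all DKO libraries and the other AKO libraries below them, and with Xist state as a term its difference was -0.998 ± 0.25 (adjusted p = 0.0209).

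Cholesterol and bile acid handling fell in 9 of 12 tested members and rose in 0. The sterol exporters Abcg5 and Abcg8, which form 1 complex, both fell. Abcg5 was at 195, 230.3 and 154 in the AKO libraries and 20.03, 18.3 and 23.2 in the DKO libraries (-3.16 ± 0.17), and Abcg8 at 183, 229.7 and 139.7 in the AKO libraries and 18.8, 19.2 and 20.3 in the DKO libraries (-3.15 ± 0.18). The cholesterol importer Npc1l1 fell by 2.32 and Fabp6 by 2.88, whereas the ileal bile acid transporter Slc10a2, at 569, 814 and 568 in the AKO libraries and 498, 403 and 501 in the DKO libraries, did not pass the test (adjusted p = 0.0807). Of 22 cholesterol synthesis genes 7 rose and 2 fell, a share called of 40.9% that is close to the 39.1% of all genes, and 4 rose without AKO replicate 1 or DKO replicate 2 and 3 with Xist state as a term. The kinase Pmvk and the cyclase Lss rose by 0.71 and 0.68, and the reductase Dhcr7, the last enzyme of the pathway, fell from 72.1, 87.3 and 67.0 to 21.2, 28.0 and 24.5 (-1.58 ± 0.15).

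In fatty acid oxidation 13 of 23 genes fell and 4 rose. Ppara, the nuclear receptor that drives these genes, was at 72.9, 93.3 and 61.8 in the AKO libraries and 7.37, 5.94 and 6.22 in the DKO libraries (-3.34 ± 0.17), and its coactivator Ppargc1a fell by 2.68. The peroxisomal genes Ehhadh and Acaa1b fell by 1.82 and 3.61. Known Ppara targets also went the other way, Pdk4 from 6.95, 7.94 and 5.70 to 46.5, 26.8 and 19.2 (1.93 ± 0.29) and Angptl4 by 1.70, the latter called in 15 of 22 alternative analyses. Angptl4 is the first tested gene beside Rab11b on chromosome 17 and, without the Rab11a deletion, was at 25.9, 29.0 and 15.9 in WT and 66.6, 149.6 and 169 in BKO, with no overlap and a difference of 2.33 ± 0.49 that did not pass the test (adjusted p = 0.268). In AKO it was at 20.3, 67.1 and 16.7 and in DKO at 115, 82.3 and 90.5.

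Xenobiotic metabolism fell in 23 of 35 genes and rose in 7, with a median of -1.65. Of the 35, 4 passed the filter through AKO alone and had to be lower, and 1 through DKO alone and had to be higher. Beside the P450 genes above, the efflux pumps Abcb1a and Abcg2 fell by 1.65 and 1.39, the glucuronosyltransferase Ugt1a1 by 2.82, and the xenobiotic receptor Nr1i2 by 1.13. The glutathione transferases Gsta1 and Gsta4 rose instead: Gsta1 was at 50.02, 41.4 and 41.2 in the AKO libraries and 602, 372 and 435 in the DKO libraries, separating the groups fully (3.36 ± 0.19), and Gsta4 rose by 2.81. Akr1b8, an aldo-keto reductase, rose by 2.90.

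Polyamine and arginine metabolism changed in both directions. Odc1, which makes putrescine, was at 143, 181 and 145 in the AKO libraries and 331, 404 and 480.2 in the DKO libraries (1.36 ± 0.17), and the spermidine synthase Srm and the spermine oxidase Smox rose by 1.495 and 1.77. Aoc1, which removes putrescine, fell as given above. The mitochondrial genes of citrulline synthesis, Cps1, Otc and Oat, fell by 1.996, 1.55 and 2.18, and Arg1, the cytosolic arginase, was at 1.41, 0.156 and 1.10 in the AKO libraries and 4.17, 32.7 and 52.1 in the DKO libraries, uneven within DKO (3.54 ± 0.77). In all 6 of 16 members rose and 5 fell, 37.5% and 31.25% beside 19.2% and 19.9% of all genes.

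Of 21 transcription factors of the enterocyte 12 fell and 4 rose, and with Xist state as a term 7 fell. Hnf4a was at 1301, 1365 and 1395 in the AKO libraries and 943, 770.3 and 697 in the DKO libraries (-0.76 ± 0.17), and Hnf4g at 456, 483 and 410.0 in the AKO libraries and 202, 169.7 and 183 in the DKO libraries (-1.28 ± 0.13). Neither overlapped between the groups. Cdx2, which sets intestinal identity, fell by 0.63, Maf by 1.45, Nr5a2 by 1.69 and Klf4 by 1.10. Sox9, a factor of crypt and progenitor cells, rose by 0.57 (called in 15 of 22 alternative analyses).

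**Figure D4:**
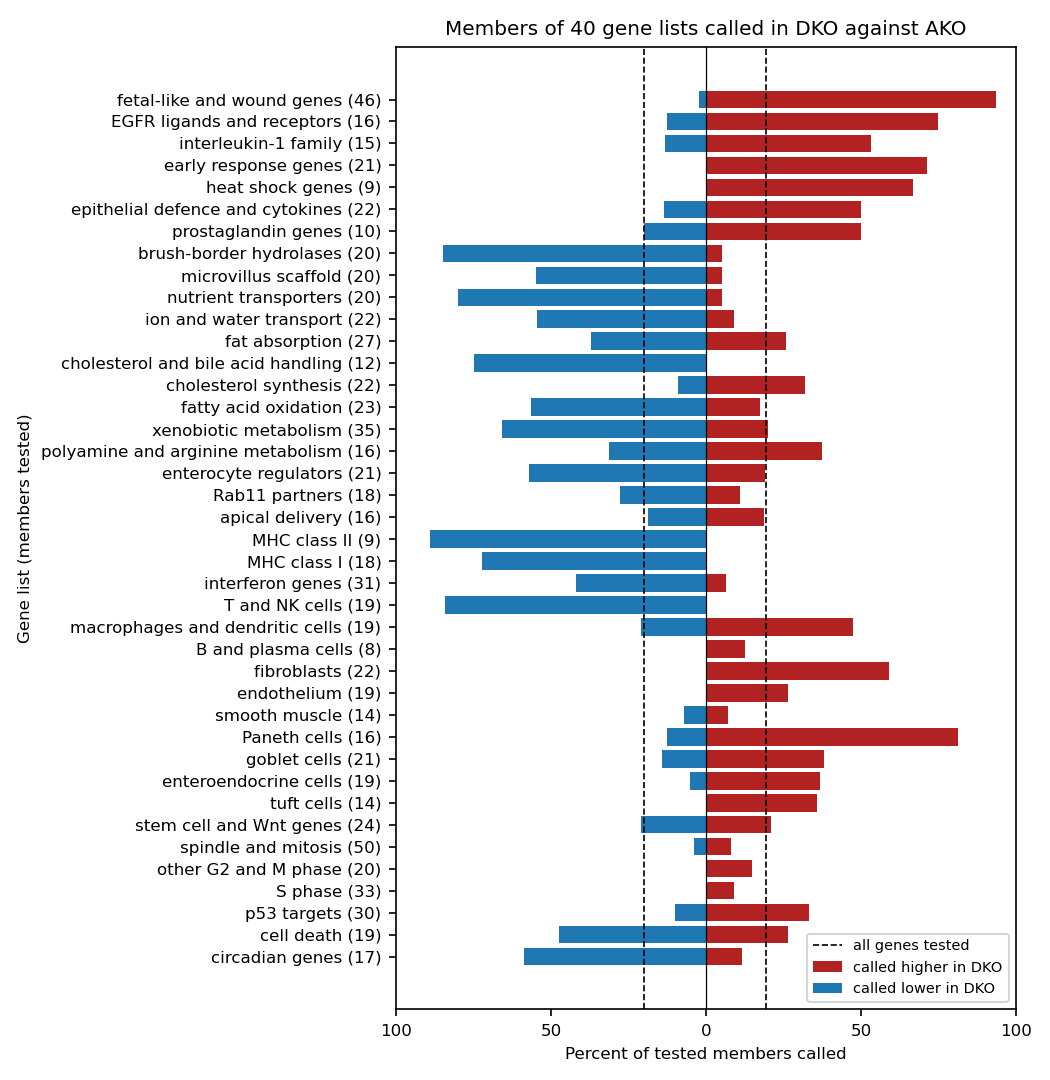
Share of the tested members of 40 gene lists that were called higher (right, red) or lower (left, blue) in DKO than in AKO, with the number of members tested in brackets. Dashed lines are the shares of all genes, 19.2% higher and 19.9% lower.

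Of 16 Paneth cell markers 13 rose and 2 fell. The antimicrobial ribonuclease Ang4 was at 63.1, 59.7 and 54.2 in the AKO libraries and 368, 289 and 364 in the DKO libraries (2.4999 ± 0.14), and the lectin Itln1 at 449, 524 and 261 in the AKO libraries and 1001, 1352 and 1919 in the DKO libraries (1.80 ± 0.31). Lysozyme (Lyz1) was at 1703, 1825 and 1271 in the AKO libraries and 2273, 4131 and 6570.1 in the DKO libraries (1.32 ± 0.37; called in 13 of 22 alternative analyses). Defensins of this list diverged, with Defa17 at 383, 392 and 323 in the AKO libraries and 1354, 1555 and 2366 in the DKO libraries and Defa22 at 433, 425 and 353 in the AKO libraries and 33.3, 157 and 145 in the DKO libraries, and these near-identical copies are uncertain. Of the goblet cell markers 8 of 21 rose and 3 fell: the mucin gene Muc2 was at 832, 1303 and 811 in the AKO libraries and 2143, 2598 and 1237 in the DKO libraries with overlapping groups (0.99 ± 0.31, called in 15 of 22), and Fcgbp, a mucus protein, fell by 1.14 (called in 15 of 22). Enteroendocrine markers rose in 7 of 19, among them the hormone genes Cck (1.99 ± 0.24) and Tac1 (2.31 ± 0.31), and fell in 1. Tuft cell markers rose in 5 of 14 and fell in 0. Called members were 52.4%, 42.1% and 35.7% of the goblet, enteroendocrine and tuft lists, beside 39.1% of all genes. Members called higher were 38.1%, 36.8% and 35.7%, beside 19.2% of all genes. With Xist state as a term 4 goblet, 4 enteroendocrine and 1 of the tuft cell markers rose. Without AKO replicate 3, 5 goblet and 3 tuft cell markers rose, and tuft cell markers numbered 3 without AKO replicate 2 and 2 without DKO replicate 2.

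Stem cell and Wnt genes rose in 5 and fell in 5 of 24 (20.8% each way), which is close to the 19.2% and 19.9% of all genes, and 3 fell without AKO replicate 3, without DKO replicate 3 or with Xist state as a term. Lgr5, the marker of crypt base stem cells, was at 13.5, 15.6 and 14.95 in the AKO libraries and 8.63, 13.9 and 13.1 in the DKO libraries, with overlapping groups and no call (adjusted p = 0.23). Olfm4, another stem cell marker, was at 219, 310.0 and 309 in the AKO libraries and 57.2, 105 and 139 in the DKO libraries (-1.54 ± 0.30), and the Wnt targets Axin2 and Ascl2 fell by 1.12 and 1.003. Cd44, Ephb2, Ephb3 and Prom1 rose by 1.43, 0.87, 0.93 and 0.92.

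Of 50 tested genes of the mitotic spindle, the structure named in the title of the study, 4 rose and 2 fell. Called members were 12% of the list beside 39.1% of all genes, a difference that was not tested. Over the alternatives 1 to 10 members rose and 0 to 4 fell, and the median difference was 0.07. Birc5, the survivin subunit of the chromosomal passenger complex, was at 36.2, 32.3 and 41.1 in the AKO libraries and 52.2, 55.5 and 66.6 in the DKO libraries (0.65 ± 0.14), and Tacc3, which stabilizes spindle microtubules, at 30.1, 21.6 and 32.3 in the AKO libraries and 36.2, 43.7 and 49.4 in the DKO libraries (0.61 ± 0.18). In Birc5 and Tacc3 every DKO value was above every AKO value. Anln and Cep55, which act in cytokinesis, rose by 0.72 and 1.08. Numa1, which anchors spindle poles to the cell cortex, was at 151, 271 and 139.9 in the AKO libraries and 109, 101 and 90.6 in the DKO libraries (-0.83 ± 0.24), and Nusap1 fell by 0.72. Tacc3, Cep55, Anln, Numa1 and Nusap1 were called in 17, 17, 20, 20 and 13 of 22 alternative analyses. The mitotic kinase Plk1, at 40.2, 25.4 and 42.3 in the AKO libraries and 34.9, 49.3 and 38.9 in the DKO libraries, overlapped between the groups and did not pass the test (adjusted p = 0.482). In a further list of G2 and M phase 3 of 20 genes rose, with Cdk1 from 40.5, 33.4 and 45.4 to 54.1, 67.1 and 87.6 (0.77 ± 0.19) and the proliferation marker Mki67 at 134, 106 and 162 in the AKO libraries and 119, 150.1 and 136 in the DKO libraries without a call (adjusted p = 0.913). S phase genes rose in 3 of 33. With Xist state as a term the medians of these 3 lists were 0.40, 0.38 and 0.42, and 9, 5 and 7 of their members were called higher. In the other direction, without AKO replicate 2 the medians were -0.11, 0.01 and -0.04, and with all 12 libraries in the fit 1, 1 and 0 members were called higher.

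Targets of p53 rose in 10 of 30 and fell in 3, a share called of 43.3% beside 39.1% of all genes. With Xist state as a term 6 rose and 5 fell. The cell cycle inhibitor Cdkn1a was at 273, 328 and 304 in the AKO libraries and 530.4, 425 and 450.2 in the DKO libraries (0.63 ± 0.14), and the kinase Plk3 at 12.9, 16.8 and 11.4 in the AKO libraries and 100.3, 58.1 and 78.2 in the DKO libraries (2.42 ± 0.22). Mdm2, the p53 ubiquitin ligase, was at 44.7, 61.3 and 51.8 in the AKO libraries and 68.6, 63.3 and 87.1 in the DKO libraries and did not pass the test (adjusted p = 0.0567), and Sesn1 fell from 121, 123 and 118 to 32.0, 24.6 and 27.6 (-2.07 ± 0.13). Among cell death genes 9 of 19 fell and 5 rose, and 2 rose without AKO replicate 1, without AKO replicate 3 or with Xist state as a term, and 3 without DKO replicate 2 or 3. Called members were 73.7% of the cell death list, beside 39.1% of all genes. The necroptosis kinase Ripk3 was at 42.7, 29.4 and 43.5 in the AKO libraries and 166, 176 and 159 in the DKO libraries (2.11 ± 0.16), without overlap.

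Of 9 tested MHC class II genes 8 fell and 0 rose, with a median of -3.24. Ciita, the transactivator of class II genes, was at 86.5, 56.5 and 90.2 in the AKO libraries and 4.61, 2.73 and 2.97 in the DKO libraries (-4.14 ± 0.23), and the class II chain H2-Aa at 1261, 1522 and 1272 in the AKO libraries and 138, 87.3 and 113 in the DKO libraries (-3.59 ± 0.18). The groups did not overlap in either. Class I genes fell in 13 of 18 and rose in 0, with the light chain B2m at 2020.3, 2197 and 2388 in the AKO libraries and 623, 396 and 485 in the DKO libraries (-2.15 ± 0.20), although several class I genes have close copies and H2-D1 was called in 10 of 22 alternative analyses. Interferon-induced genes fell in 13 of 31 (41.9%, beside 19.9% of all genes) and rose in 2. The proteasome subunit Psmb9 went from 99.1, 68.5 and 132 to 24.3, 10.5 and 18.2 (-2.46 ± 0.32). In contrast Isg15, at 9.45, 21.6 and 21.1 in the AKO libraries and 46.3, 13.97 and 31.9 in the DKO libraries, did not pass the test (adjusted p = 0.231). With all 12 libraries in the fit 4 interferon genes, 5 class II genes and 8 class I genes fell, and without DKO replicate 2 8 interferon genes did. Some class I genes lie among the 20 tested genes on 1 side of Rab11b on chromosome 17 and fell. For such genes a change that comes with that chromosome segment cannot be told apart from one that comes from the loss of Rab11b. How far the segment reaches, and so whether it holds the class II genes, was not examined.

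Markers of T and NK cells fell in 16 of 19 tested members, with a summed level of 248 to 400.4 in AKO and 42.5 to 109.6 in DKO. Cd3e was at 14.9, 7.78 and 17.1 in the AKO libraries and 2.28, 1.40 and 3.48 in the DKO libraries (-2.05 ± 0.32), Cd8a at 24.5, 18.7 and 32.6 in the AKO libraries and 3.39, 2.84 and 8.05 in the DKO libraries (-2.26 ± 0.34), and the granzyme Gzma at 66.8, 69.9 and 111 in the AKO libraries and 5.97, 5.98 and 23.8 in the DKO libraries (-2.93 ± 0.47). DKO replicate 3 was the highest DKO library in these 3 genes and still below every AKO value. With all 12 libraries in the fit 2 members fell, and with Xist state as a further term 10. Cd4, at 8.58, 5.33 and 8.77 in the AKO libraries and 8.20, 6.02 and 4.89 in the DKO libraries, did not pass the test (adjusted p = 0.505).

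Macrophage and dendritic cell markers rose in 9 of 19 and fell in 4, 47.4% and 21.1% beside 19.2% and 19.9% of all genes. Their summed level was 345 to 386 in AKO and 568 to 819 in DKO. The mannose receptor Mrc1 was at 8.42, 8.13 and 9.52 in the AKO libraries and 108, 92.6 and 109 in the DKO libraries (3.43 ± 0.13), whereas Csf1r, the receptor that macrophages depend on, overlapped in range at 23.01, 23.97 and 28.1 in the AKO libraries and 42.0, 31.8 and 27.3 in the DKO libraries and did not pass the test (adjusted p = 0.106). The engulfment receptor Mertk fell from 56.8, 125 and 55.1 to 13.6, 9.84 and 9.56 (-2.64 ± 0.31). Of 8 B and plasma cell markers 1 rose and 0 fell (summed level 1071 to 2279 in AKO and 993 to 1481 in DKO). Fibroblast markers rose in 13 of 22 (summed level 741 to 842 in AKO and 1408 to 2209 in DKO), with the matrix genes Dcn at 80.9, 59.1 and 94.8 in the AKO libraries and 282, 240.4 and 247 in the DKO libraries (1.72 ± 0.18) and Col1a1 at 37.9, 31.6 and 43.5 in the AKO libraries and 138, 130.3 and 64.4 in the DKO libraries (1.47 ± 0.28). Endothelial markers rose in 5 of 19 (summed level 112 to 122 in AKO and 129.8 to 193 in DKO), 26.3% of the list beside 19.2% of all genes called higher. Without AKO replicate 3 the number was 2, without DKO replicate 1 or 2 it was 3, without DKO replicate 3 it was 8, and with Xist state as a term 2. The smooth muscle markers overlapped in summed level (1917 to 4327 in AKO and 2026 to 3352 in DKO) with 1 higher and 1 lower of 14. That is 14.3% called, beside 39.1% of all genes. The part of a shift in these cell types in the changes of other genes was not tested.

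Circadian genes fell in 10 of 17 (58.8%, beside 19.9% of all genes) and rose in 2. Dbp, an output gene of the clock, was at 16.03, 28.4 and 10.1 in the AKO libraries and 1.31, 1.10 and 1.33 in the DKO libraries (-2.98 ± 0.32), Per2 fell by 1.51 and Arntl by 0.93, and Per1 rose by 0.92. Without DKO replicate 2 or DKO replicate 3, 6 members fell.

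Rab11b lies on chromosome 17. Of the 20 tested genes on each side of it, 4 rose and 18 fell, 55% of 40, against 42.5% of the next 160 and 35.5% of the other 473 tested genes of the chromosome, a difference that was not tested. Cyp4f40, a neighbour of the cytochrome P450 4f family, was at 101, 84.3 and 104 in the AKO libraries and 40.0, 37.3 and 38.1 in the DKO libraries (-1.30 ± 0.12), and Cyp4f16 at 241, 156 and 263 in the AKO libraries and 70.0, 60.4 and 68.4 in the DKO libraries (-1.69 ± 0.20). Both lay below AKO in all DKO libraries. Class I genes of the MHC, on the other side of Rab11b, are also among the neighbours that fell. A change that comes with the chromosome segment carrying the null allele and a change that comes from the loss of Rab11b cannot be told apart in these groups.

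The same Rab11b null genotype without the Rab11a deletion was examined in BKO against WT, which shares no library with DKO against AKO. Over the same 13366 genes 6 were called in BKO against WT (0.0449%; 5 by edgeR, 228 by DESeq2 and 1421 at an unadjusted p under 0.05), and 8 (0.0599%) without BKO replicate 3. Rab11b was 1 of the 6, at 119, 119.5 and 110.3 in WT and 28.1, 30.6 and 22.4 in BKO. The others were Gdpd3, Gm8801, H2-Bl and Pianp, which were lower in BKO, and Kcnk6, which was higher, and all of them but Pianp were also called in DKO against AKO in the same direction. Gm8801 passed the filter through AKO alone and so had to be lower in DKO, and Rab11b is the gene of the null genotype itself. H2-Bl was at 128, 124 and 107 in WT and 5.94, 8.05 and 0.881 in BKO. BKO replicate 3 stood apart from the other BKO libraries: Il1rn was at 7.14, 8.67 and 183 and Aoc1 at 1224, 1445 and 77.9 in the 3 BKO libraries. It also differed from them in Xist (0.220 against 201 and 254), in Y-linked transcripts such as Ddx3y (38.9 against 0 in both), and in the segment markers Fabp1 (242 against 7.10 and 35.0), Apoa4 (3068 against 466 and 459) and Gata4 (4.59 against 0.603 and 0.507). The part of these differences in BKO against WT and in the interaction was not tested. Of the genes called in DKO against AKO, 78.2% had the same sign in BKO against WT with this library and 45.2% without it, against 65.3% and 45.6% of all genes tested.

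**Figure D5:**
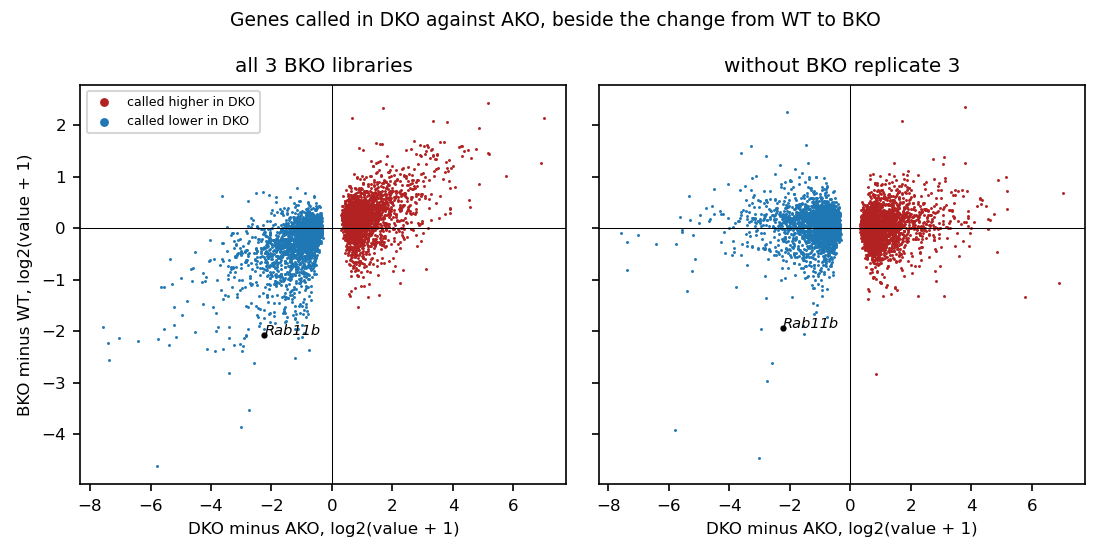
Change from WT to BKO against change from AKO to DKO for the 5224 genes called in DKO against AKO, both as log2(value + 1) differences, with all 3 BKO libraries (left) and without BKO replicate 3 (right). The slope of the cloud on the left is not seen on the right, where genes called higher and lower have median BKO changes of 0.01 and 0.06.

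The difference between both changes, DKO minus AKO minus BKO plus WT, was called for 570 genes (4.26%), 303 positive and 267 negative. Of them 558 were also called in DKO against AKO, but the interaction contains the DKO minus AKO difference, so this overlap is not an independent result. Without BKO replicate 3 the number of interactions called was 4182 (31.3%, with 1920 positive and 2262 negative), and it fell to 96 without WT replicate 1. The largest positive values were those of Retnlb, Cwh43, Areg, the imprinted RNA H19 and Ly6c1. Areg was at 5.22, 7.94 and 7.34 in WT and 9.23, 14.9 and 57.7 in BKO, so that BKO replicate 3 exceeded the other BKO libraries and lay below all DKO libraries, and its interaction was 3.72 ± 0.72 (adjusted p = 0.0235). Retnlb was at 0.652, 0 and 0.173 in WT and 0.603, 0.225 and 1.36 in BKO (4.13 ± 0.43). Retnlb and H19 passed the filter through DKO alone, so the DKO minus AKO part of their interactions had to be positive. Both interactions are therefore given as descriptions only. The largest negative values were those of Akr1c14, Slc1a1, Cubn, the endothelin Edn2 and Acaa1b. Cubn, the receptor of vitamin B12 with intrinsic factor, was at 520.4, 1123 and 434 in the AKO libraries and 55.0, 68.9 and 46.5 in the DKO libraries, at 678, 516 and 545 in WT and at 964, 1062 and 192 in BKO (-3.49 ± 0.80, adjusted p = 0.0412). For Rab11b itself the interaction was -0.17 ± 0.17 and did not pass the test (adjusted p = 0.575).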

How the data were processed

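RNA-seq libraries were made from whole tissue labelled jejunum with the TruSeq v2 kit, per the labels' protocols. The submitters' processing notes name FastQC 0.11.3, Trimmomatic 0.36, DESeq2 and the mouse build mm9, without their roles; neither an aligner nor a counter is named there, although the name of the deposited table mentions HISAT2. The deposited values are a normalized signal (fpm), fragments of each gene scaled by a factor of each library. Their totals ranged from 0.908 M (DKO replicate 2) to 1.08 M (BKO replicate 2). All values came out as whole reads within 0.001 of a read once each library's step was found, so count tests could be run as alternatives. Genes reaching a value of 1 in 3 or more of the 6 AKO and DKO libraries were tested on log2(value + 1) with limma 3.58.1 (R 4.3.3; trended prior, two-sided), with Benjamini-Hochberg adjustment over all 13366 genes. The interaction and BKO against WT came from 1 fit of all 12 libraries on the same genes. edgeR 4.0.16 and DESeq2 1.42.0 were run on the recovered reads. The scripts were tested on simulated data. Just inside the filter, 491 genes reached the value in exactly 3 libraries (median of their means 1.20), 205 of them in the 3 DKO and 126 in the 3 AKO libraries alone, and just outside it 318 did so in 2 (median 0.856).

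The genes and lists were chosen with earlier results of these data known. Named genes are Rab11a, Rab11b and Rab25, the 12 largest called changes without overlap in each direction, in each list the 5 largest called changes in each direction and the 4 members with the highest mean, the 5 largest interactions in each direction, and called neighbours of Rab11b. Outside this rule, and chosen after their values were seen, are Abcg2, Ace, Alpi, Apoc2, Arntl, Atf3, Cd3e, Cd4, Cdhr5, Cdx2, Cldn4, Clu, Col1a1, Csf1r, Dusp5, Dusp6, Epcam, Errfi1, F3, Fabp1, Gdpd3, Gm8801, Hbegf, Il33, Isg15, Jun, Kcnk6, Krt18, Krt7, Lgr5, Maff, Mdm2, Myc, Nr1i2, Pianp, Plaur, Plk1, S100a6, Spry2 and Ugt1a1. Interactions and lists were compared with all genes tested, without a set test. Promoter sequences are from RefSeq on GRCm38.p6, and no coordinates of mm9 are given. The 19.2 to 29.8 M reads of the 12 libraries limit precision for low genes, and floors of 3 reads cover counting error only. Values of some genes of the lists are not reported here.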

Additional observations from a re-analysis of the deposited data

Results flagged for a closer look

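The change from AKO to DKO differed from the change from WT to BKO, by the interaction in limma's fit of all 12 libraries, for 570 genes. The 5 largest positive interactions on the log2 scale were 4.13 for Retnlb, 3.995 for Cwh43, 3.72 for Areg, 3.61 for H19 and 3.53 for Ly6c1. The 5 largest negative ones were -4.41 for Akr1c14, -3.87 for Slc1a1, -3.49 for Cubn, -3.42 for Edn2 and -3.33 for Acaa1b. H19 was at 0.344, 0.311 and 0.263 in the AKO libraries and 36.2, 14.01 and 12.4 in the DKO libraries, with 0.326, 0.256 and 0.311 in WT and 0.139, 0.563 and 1.25 in BKO, so DKO alone lay above 10 in all 3 libraries. H19 and Retnlb passed the filter through DKO alone, and their interactions are descriptions only.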

How the results depend on the processing

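The number of genes called in DKO against AKO was 5224, and over the alternatives it ranged from 3577 (without DKO replicate 2) to 8530. The highest came with library quality weights, whose fit did not converge. edgeR gave 5133 on the same genes and DESeq2 5661. Scaling by library totals gave 4952 and a median over all genes of 0.055, with 53.3% of calls higher against 49.2%. The replicate numbers do not pair the libraries (correlations of same-numbered libraries of -0.006, -0.037 and 0.075). With the replicate block 4579 genes were called in DKO against AKO, 349 in the interaction and 3 in BKO against WT. DESeq2 called 1794 and 228 in those last comparisons, and Xist state as a term, chosen after seeing the data, gave 1698 interactions. Leaving out 1 library gave 96 to 4182 interactions and 3 to 9 genes in BKO against WT. No called gene named in the text changed sign under any alternative. Uncalled ones did: with Xist state as a term in 6 libraries Apoc2 was at -0.998, Cd4 at 0.195, Ezr at -0.161 and Fabp1 at -0.74, in 12 libraries Cd4 was at 0.088, and in 11 libraries Cd4 was at 0.051 and Ezr at -0.041. Leaving out 1 library, Mki67 ranged from -0.129 to 0.172 and Plk1 from -0.023 to 0.336. The median of the B and plasma cell list was 0.309 and 0.216 with Xist state in 6 and 11 libraries. The cause of these shifts was not tested.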

Other observations

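Neighbouring genes of some families moved together; these families were chosen after their values were seen. On chromosome 15, 7 of 8 tested Ly6 genes and 7 of 8 keratin genes rose, and 3 of 3 gasdermin C genes fell, with log2 differences from -4.96 to -4.53. On chromosome 3, 13 of 13 S100 and Sprr genes rose. Of all genes tested 19.2% rose and 19.9% fell.

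Separating all 6 Rab11b null libraries from all 6 others by at least 2-fold left 8 genes. The 5 that were lower are Rab11b, H2-Bl, Gm8801 and A930015D03Rik on chromosome 17, which holds 674 of the 13314 tested genes with a known position, and Gdpd3. The 3 that were higher are Abca4, Krt14 and Lrp2, at 0.417 to 1.51, 0.881 to 4.44 and 0.325 to 2.13 in the null libraries. In the other libraries they were at no more than 0.175, 0.157 and 0.132, near the floor of 3 reads. Genes at such values could pass the filter only through the 3 DKO libraries, so their separation from AKO is a description only. Gm8801 was at 0 in all 6 null libraries and at 4.33 to 6.36 in the others.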
